A study of Mus musculus with 18 samples.

Results

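The genes described here encode the proteins of the mitochondrial ribosome. They were taken as every entry of the expression table whose symbol is Mrps or Mrpl followed by a number, with an optional closing letter and without the mark of a pseudogene. Of 19545 entries, 78 met this rule, and all 78 reached 1 FPKM in all 18 libraries, so none was lost to the filter that left 12682 genes for testing. FPKM counts reads relative to the length of the gene and to the size of the library, and so allows levels to be compared between genes. The samples are kidneys of ICR mice, an outbred strain, aged 10 weeks, with 3 libraries in each of 6 groups. Mice of 4 groups received STZ. In the STZ+AOS-FMT group it was combined with an AOS FMT, whose label also gives AOS at 10 mg/kg, and in STZ+control-FMT with a control FMT. In STZ+AOS it was combined with AOS itself at 10 mg/kg, and in the STZ group it was given alone. The other two groups received AOS at 10 mg/kg (AOS) or were controls. By common usage STZ stands for streptozotocin, which kills the insulin-producing cells of the pancreas and so makes mice diabetic, and FMT stands for the transfer of faecal microbes. The labels leave AOS unexplained and do not say whether each library came from another mouse. The p-values therefore measure the spread between these libraries alone, and that spread may be technical.

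Mitochondria keep a small genome that encodes core subunits of the respiratory chain and of ATP synthase, and a ribosome of their own translates these messages. The RNA of this ribosome comes from the mitochondrial genome, whereas its proteins are encoded in the nucleus, made in the cytosol and imported. The small subunit (Mrps genes) reads the message, and the large subunit (Mrpl genes) forms the peptide bond. Some of the proteins descend from those of bacterial ribosomes and others were added in the mitochondrial lineage. In the kidney the cells of the proximal tubule are rich in mitochondria, which supply the energy for reabsorption of salt and solutes.

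Several libraries stood apart from their groups, and each comparison below carries this. Kap, an androgen-regulated transcript of the proximal tubule, ranged from 6174 to 155154 FPKM over the libraries. The third control library (15798 FPKM) and the third STZ library (14615 FPKM) were low, and the first STZ library (144830 FPKM) was as high as the AOS libraries. Cyp11b1, which makes corticosterone in the adrenal cortex, had 316, 14.3 and 276 FPKM in STZ+AOS and 118 FPKM in the third control library, and was at most 5.13 FPKM in the others. All 9 adrenal cortex markers were above 1 FPKM in every STZ+AOS library, with a summed level of 126 to 2566 FPKM, against 3.03 to 62.8 FPKM in STZ, 3.21 to 5.64 FPKM in AOS and 3.66 to 929 FPKM in controls. The 6 markers of adrenal chromaffin cells summed to 18.3 to 336 FPKM in STZ+AOS, and to at most 34.6 FPKM in any other library. Spermatid markers were seen in controls (31.1 to 44.1 FPKM) and STZ (22.4 to 85.9 FPKM), and summed to at most 0.590 FPKM elsewhere. Kidney markers of the proximal tubule, podocytes and the thick ascending limb were present in all libraries.

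The mitoribosomal genes were well expressed. Their mean FPKM over the 18 libraries ran from 4.24 to 343 with a median of 56.3, against a median of 9.63 for the 12682 tested genes, and 77 of the 78 averaged at least 10 FPKM. Mrps21, a small-subunit protein related to bacterial S21 (chromosome 3, 95862634 to 95871519, minus strand, mm10), had the highest mean, at 343 FPKM. Its level was 396, 358 and 392 FPKM in STZ+AOS-FMT, 350.3, 388 and 350.3 FPKM in STZ+control-FMT, 296, 360.2 and 252 FPKM in STZ+AOS, 375, 329.6 and 334 FPKM in STZ, 332, 317 and 327 FPKM in AOS and 317, 342 and 363 FPKM in controls. The third STZ+AOS library was its lowest. Mrpl12, the protein of the stalk on which translation factors dock, came next with a mean of 222 FPKM, then Mrpl42 (186 FPKM), Mrpl20 (149.9 FPKM), Mrpl30 (142 FPKM) and Mrpl54 (136 FPKM). Mrpl20 spanned 124 to 173 FPKM over the libraries, Mrpl30 113 to 173 FPKM and Mrpl54 113 to 153 FPKM, so that each overlapped its neighbour in this order. At the other end stood Mrpl19 with 3.34 to 5.40 FPKM, Mrpl17 with 8.83 to 11.2 FPKM, Mrps25 with 8.59 to 12.6 FPKM and Mrpl1, the protein of the mobile L1 stalk, with 10.7 to 13.7 FPKM. Mrpl19 shares 36% of its exon length with Gcfc2 and Mrps25 shares 69.8% with Nr2c2, both on the opposite strand. Whether counting used strand is not given, so the reads of these genes may be mixed with those of their neighbours. In all, 12 of the 78 genes share at least 10% of their exon length with another protein-coding gene.

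Both subunits were expressed at similar levels. The 51 large-subunit genes had a median mean level of 56.1 FPKM and the 26 small-subunit genes 53.2 FPKM. In the small subunit, the 15 genes with bacterial relatives had a median of 59.1 FPKM and the 10 mitochondria-specific ones 40.7 FPKM, and in the large subunit these medians were 58.8 FPKM (29 genes) and 52.9 FPKM (21 genes). Mrps18a and Mrps30 carry small-subunit names but are parts of the large subunit and were counted there. Mrps36 is no ribosomal protein: it is a subunit of the 2-oxoglutarate dehydrogenase complex of the citric acid cycle, and stands outside both subunits.

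The levels were steady over the libraries. The standard deviation of log2(FPKM + 1) over all 18 libraries had a median of 0.13 for the mitoribosomal genes, within a range of 0.07 to 0.45. The median was 0.22 for all tested genes and 0.20 for the 8679 tested genes in the same range of mean level. The standard deviation lay below the median of all tested genes for 71 of the 78. The 8679 genes were not matched by level within that range. The third quartile of mean FPKM was 25.7 for all tested genes, and the first quartile was 31.3 for the 78. How far the steadiness goes with high expression was not tested. Summed over the 78 genes, the level was 5048 ± 142 FPKM in STZ+AOS-FMT, 5107 ± 135 FPKM in STZ+control-FMT, 4637 ± 423 FPKM in STZ+AOS, 5061 ± 38.5 FPKM in STZ, 4761 ± 97.1 FPKM in AOS and 4923 ± 331 FPKM in controls (SD, n = 3 each). The lowest library (the third of STZ+AOS, 4152 FPKM) and the highest (the third control, 5298 FPKM) differed by 1.28 times. The other STZ+AOS libraries, with 4936 and 4822 FPKM, lay above the AOS mean, but below the means of STZ and of both transfer groups. That STZ+AOS had a lower mean than AOS therefore rests on replicate 3. That library held the lowest value of all 18 for 46 of the 78 genes, and 10 of them lay above their own median over the libraries. In the same library 59.1% of all tested genes lay above theirs. In bulk tissue, fewer cells of a type and less RNA per cell cannot be told apart.

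**Figure D1:**
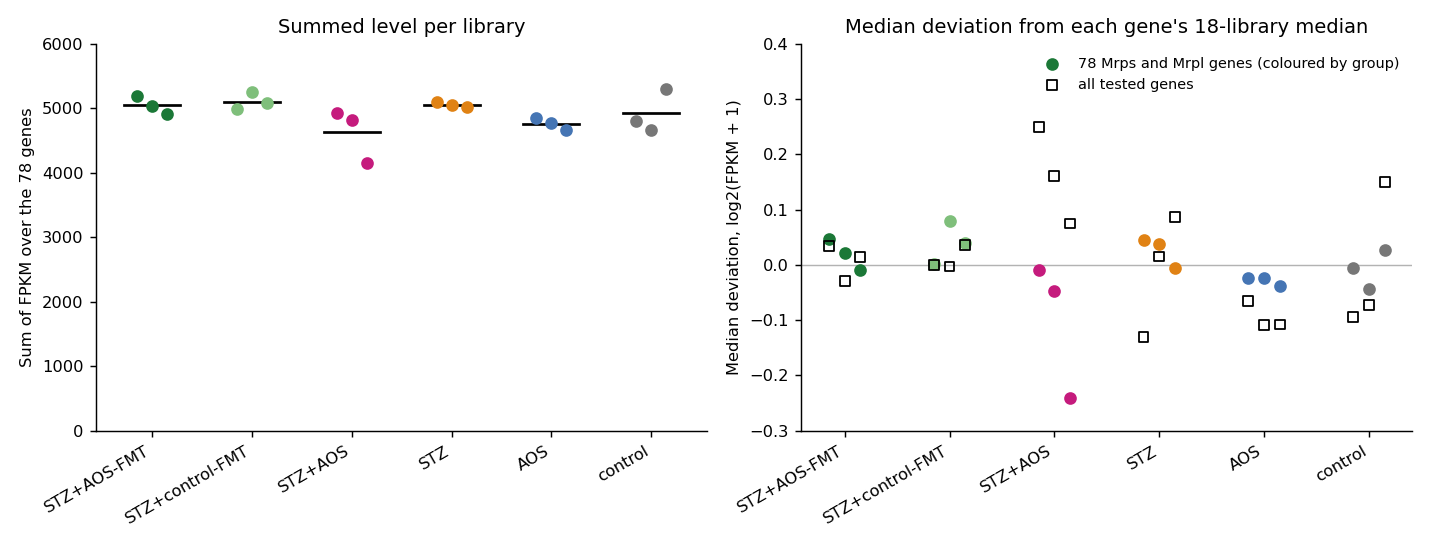
Left, sum of the FPKM of the 78 Mrps and Mrpl genes in each library (points) with the mean of the 3 libraries of each group (line). Right, for each library, the median over the 78 genes (filled circles) and over the 12682 tested genes (open squares), of the deviation of log2(FPKM + 1) from the gene's own median over the 18 libraries. In the 3 STZ+AOS libraries the circles lie below 0 and the squares above it.

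**Figure D2:**
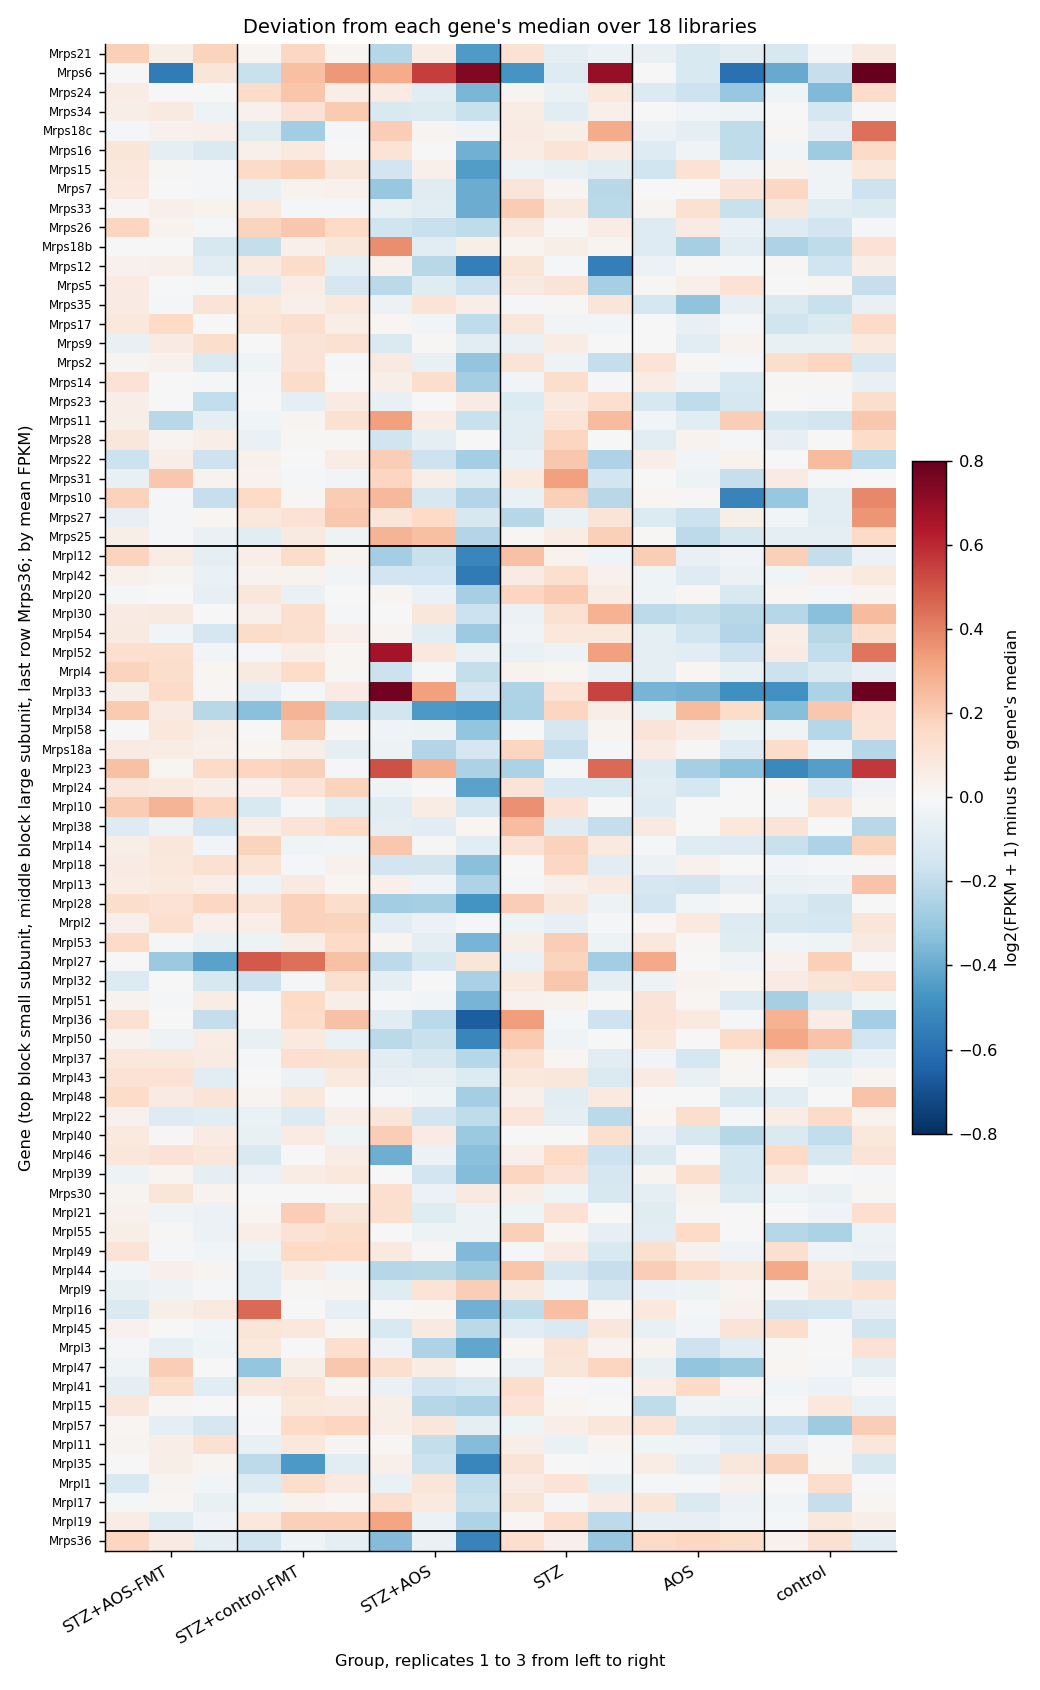
Colours give log2(FPKM + 1) minus the gene's median over the 18 libraries, for the 78 genes in rows (small subunit above, large subunit below it, Mrps36 in the last row, each block sorted by mean FPKM) and the libraries in columns by group. The third STZ+AOS library is the bluest column, with the lowest value of all libraries for 46 genes.

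The least variable genes were Mrps30, Mrpl43, Mrps9 and Mrpl21. Mrps30 spanned 32.8 to 39.5 FPKM, Mrpl43 48.7 to 57.2 FPKM, Mrps9, related to bacterial S9, 31.6 to 37.99 FPKM and Mrpl21 31.1 to 38.3 FPKM over the 18 libraries. The highest library exceeded the lowest by 1.18 to 1.23 times in these 4 genes. Some pairs of groups were still apart: all 3 STZ+AOS-FMT libraries had more Mrps30 than all STZ+control-FMT and control libraries, and all 3 STZ+AOS libraries had less Mrpl43 than all AOS libraries.

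The most variable genes were Mrps6, Mrpl33, Mrpl23 and Mrpl34, with standard deviations of 0.45, 0.39, 0.32 and 0.25 on the log2 scale. Mrps6, the relative of bacterial S6 in the small subunit (chromosome 16, 92058270 to 92112227, plus strand, mm10), was at 97.4, 65.8 and 104 FPKM in STZ+AOS-FMT, 86.2, 116 and 124 FPKM in STZ+control-FMT, 120.1, 143 and 164 FPKM in STZ+AOS, 69.9, 90.7 and 159 FPKM in STZ, 97.6, 89.6 and 64.1 FPKM in AOS and 73.4, 85.9 and 181 FPKM in controls. The third control and the third STZ libraries, in which Kap was low, stood with the STZ+AOS libraries. Mrps6 shares 10.4% of its exon length with Slc5a3, the sodium and myo-inositol transporter, on the same strand, and 19.9% with the gene model Gm49711. The level of Slc5a3 was 3.82 to 13.6 FPKM over the libraries, with the highest value in the third STZ+AOS library.

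Mrpl33, a small protein of the large subunit (chromosome 5, 31596935 to 31664384, plus strand, mm10), had 173, 127 and 92.0 FPKM in STZ+AOS, 85.0, 109 and 147 FPKM in STZ, 77.8, 77.1 and 71.4 FPKM in AOS and 71.8, 84.5 and 175 FPKM in controls. Mrpl23, which lines the exit of the peptide tunnel, had 129.6, 111 and 76.1 FPKM in STZ+AOS, 76.1, 89.9 and 125 FPKM in STZ, 84.4, 75.3 and 72.2 FPKM in AOS and 63.3, 66.6 and 135 FPKM in controls. For both, the third control library was the highest of its group by far and the AOS libraries were low. In the 6 libraries with a transfer Mrpl33 lay between 95.9 and 112 FPKM and Mrpl23 between 89.7 and 107 FPKM. The part of the libraries that stand apart in these values was not tested.

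**Figure D3:**
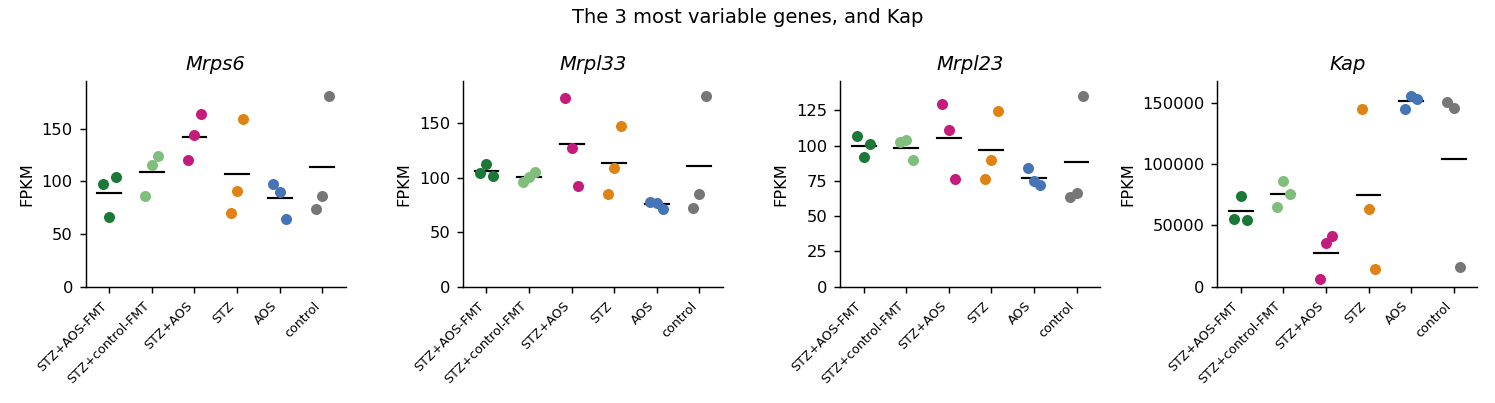
FPKM of Mrps6, Mrpl33 and Mrpl23, the 3 most variable of the 78 genes, and of Kap in each library (points), with the mean of the 3 libraries of each group (line). The third control library has 181, 175 and 135 FPKM of the first 3 genes and 15798 FPKM of Kap.

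The promoters of the genes with calls are shown because the nuclear genes of mitochondria are known to be controlled in part through sites for NRF1, ETS factors of the GABP type and YY1. RefSeq windows (GRCm38.p6) of 250 bases before to 50 after the start were at hand for 69 of the 78 genes. The NRF1 core GCATGCGC was found on either strand in 8 of them (11.6%), against 5.66% of 9998 tested genes with a window. The ETS core CCGGAAGT was found in 12 (17.4%), against 8.88%, and the YY1 letters AAGATGGCG in 8 (11.6%), against 3.48%. The E-box CACGTG, a palindrome, was in 5 (7.25%), against 11.7%. In all, 26 windows held at least 1 of the NRF1, ETS and YY1 letters, and 2 held more than 1. A match is no proof of a site, and a window without one says only that these letters are not in it. The windows of the 4 genes called in more than 1 comparison and of Mrps26 follow, 5′ to 3′ on the strand of the gene, with matched letters in capitals. Mrpl28 lies at chr17:26123253-26123552 (plus strand) and Mrpl12 at chr11:120484387-120484686 (plus strand), and neither holds any of the letters. Mrpl42 at chr10:95501900-95502199 (minus strand) has the YY1 letters at 27 to 35 after the start, Mrpl18 at chr17:12916042-12916341 (minus strand) the ETS core at -240 to -233, and Mrps26 at chr2:130563507-130563806 (plus strand) the reverse complement of the ETS core at -15 to -8.
Mrpl28: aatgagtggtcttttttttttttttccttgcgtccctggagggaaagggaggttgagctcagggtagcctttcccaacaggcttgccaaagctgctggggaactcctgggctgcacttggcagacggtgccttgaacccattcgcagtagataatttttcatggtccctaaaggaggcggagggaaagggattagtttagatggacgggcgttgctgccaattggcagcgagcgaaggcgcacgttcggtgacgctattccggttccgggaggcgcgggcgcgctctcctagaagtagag
Mrpl12: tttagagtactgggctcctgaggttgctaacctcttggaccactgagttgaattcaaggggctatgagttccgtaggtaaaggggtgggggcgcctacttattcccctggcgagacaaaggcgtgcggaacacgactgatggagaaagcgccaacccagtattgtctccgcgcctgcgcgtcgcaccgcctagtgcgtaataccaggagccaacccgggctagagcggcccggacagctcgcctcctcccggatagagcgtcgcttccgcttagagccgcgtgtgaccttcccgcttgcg
Mrpl42: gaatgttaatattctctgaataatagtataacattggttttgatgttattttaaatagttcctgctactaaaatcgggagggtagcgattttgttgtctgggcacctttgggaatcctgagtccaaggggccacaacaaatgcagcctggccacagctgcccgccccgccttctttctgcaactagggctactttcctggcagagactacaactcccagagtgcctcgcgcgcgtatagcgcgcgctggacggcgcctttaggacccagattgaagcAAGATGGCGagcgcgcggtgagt
Mrpl18: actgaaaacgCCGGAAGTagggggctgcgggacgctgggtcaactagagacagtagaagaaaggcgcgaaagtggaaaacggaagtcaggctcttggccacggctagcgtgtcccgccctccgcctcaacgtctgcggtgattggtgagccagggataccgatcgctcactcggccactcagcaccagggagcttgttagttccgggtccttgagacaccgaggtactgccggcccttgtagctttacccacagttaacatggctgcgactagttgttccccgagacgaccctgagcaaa
Mrps26: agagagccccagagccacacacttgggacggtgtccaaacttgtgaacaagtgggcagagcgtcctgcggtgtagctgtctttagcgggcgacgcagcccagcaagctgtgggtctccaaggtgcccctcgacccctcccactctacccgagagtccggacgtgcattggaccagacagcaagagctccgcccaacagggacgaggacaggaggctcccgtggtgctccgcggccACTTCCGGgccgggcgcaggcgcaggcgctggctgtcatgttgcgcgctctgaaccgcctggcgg

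The first comparison, STZ against control, concerns STZ by itself. No mitoribosomal gene was called, where a call means an adjusted p under 0.05 by limma with Benjamini-Hochberg adjustment over all 12682 genes. Of all genes, 0% were called, while 161 genes had an unadjusted p under 0.05, 1 of them mitoribosomal. The median log2 difference was 0.03 for the 78 genes and 0.00 for all tested genes. The smallest p belonged to Mrpl55, a large-subunit protein, with 38.2, 33.7 and 31.8 FPKM in STZ against 28.3, 27.8 and 32.4 FPKM in controls (log2 difference 0.22 ± 0.09 SE, limma adjusted p = 1.00). Mrpl28 (0.16 ± 0.08) and Mrps35 (0.15 ± 0.08) followed. Without the third control and the first STZ library, 3 of the 78 were called, 2 higher and 1 lower, and of all tested genes 881 were called higher and 224 lower.

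AOS against control concerns AOS by itself. No mitoribosomal gene was called. Of all genes 0% were called higher and 0.0710% lower, and 521 genes had an unadjusted p under 0.05, 2 of them mitoribosomal. The median was -0.03 for the 78 genes and -0.09 for all genes. Mrpl55 was at 31.2, 37.4 and 33.4 FPKM in AOS, against the control values above (0.20 ± 0.09). Mrps23, a mitochondria-specific small-subunit protein, was at 29.3, 27.8 and 29.1 FPKM in AOS and 32.1, 31.6 and 35.4 FPKM in controls, with no overlap (-0.19 ± 0.08). The next, Mrps18c, was at 71.1, 69.6 and 63.6 FPKM in AOS and 73.9, 70.0 and 100.3 FPKM in controls (-0.24 ± 0.12). The smallest adjusted p of the 78 was 0.817 by limma.

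Some of the mitoribosomal genes were lowest in STZ+AOS. All 3 STZ+AOS libraries lay below all 15 others for Mrpl28, Mrpl42, Mrpl18, Mrps26, Mrpl44 and Mrpl50, 6 of the 78 genes (7.69%). The same held for 1.66% of all tested genes. Mrpl28, a large-subunit protein with a bacterial relative (chromosome 17, 26123500 to 26126613, plus strand, mm10), had the smallest p of the 78 in the F test over all groups. It was at 78.5, 77.3 and 80.1 FPKM in STZ+AOS-FMT, 76.5, 81.1 and 78.6 FPKM in STZ+control-FMT, 58.6, 59.1 and 50.8 FPKM in STZ+AOS, 81.9, 75.8 and 69.1 FPKM in STZ, 64.0, 70.1 and 71.0 FPKM in AOS and 66.4, 64.3 and 71.5 FPKM in controls. The STZ+AOS libraries stood below every other library. The 3 comparisons that follow share the STZ+AOS libraries and are not independent of each other.

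STZ+AOS against STZ concerns AOS on top of STZ. Of the 78 genes, 0 were called higher and 2 lower, Mrpl28 and Mrpl42. Among all tested genes 3.44% were called higher and 1.10% lower. Mrpl28 averaged 56.2 ± 4.68 FPKM in STZ+AOS and 75.6 ± 6.37 FPKM in STZ (SD, n = 3 each), with a log2 difference of -0.42 ± 0.08 on the log2(FPKM + 1) scale, a fitted fold of 0.746 (SE, limma adjusted p = 0.0320). Mrpl42, a mitochondria-specific protein of the large subunit, had 171, 171 and 128 FPKM in STZ+AOS and 199, 208 and 195 FPKM in STZ (-0.37 ± 0.09, limma adjusted p = 0.0478). The groups did not overlap for either gene. Next by p, without a call, came Mrps26, Mrpl12, Mrpl3, Mrpl18, Mrpl50 and Mrpl20, with log2 differences of -0.40 to -0.23 and limma adjusted p of 0.0604 to 0.0696. Mrpl12 had 184, 196 and 155 FPKM in STZ+AOS and 263, 227 and 217 FPKM in STZ. Mrps26 had 53.5, 52.8 and 51.9 FPKM in STZ+AOS and 63.7, 60.2 and 62.4 FPKM in STZ, and Mrpl3, a protein near the site of peptide bond formation, had 23.5, 20.2 and 17.9 FPKM in STZ+AOS and 24.5, 26.2 and 24.7 FPKM in STZ. The groups did not overlap for any of these 6 genes, which were picked by p and did not pass the threshold. Of all 78 genes, STZ+AOS lay wholly above STZ for 0 and wholly below it for 12. The share of all tested genes is not given here. Mrpl18 had 66.3, 66.8 and 58.4 FPKM in STZ+AOS and 73.6, 83.1 and 69.7 FPKM in STZ, Mrpl50 had 48.0, 49.1 and 38.6 FPKM in STZ+AOS and 64.7, 54.8 and 55.9 FPKM in STZ, and Mrpl20 had 152, 144 and 124 FPKM in STZ+AOS and 169, 173 and 156 FPKM in STZ.

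Set against the whole table, the direction was shared widely. The median log2 difference in STZ+AOS against STZ was -0.11 for the 78 genes and 0.19 for all tested genes, and 77 of the 78 lay below the median of all genes. Rescaling by the median of ratios left the 78 genes at a median of -0.33 and 20 of them called, all lower. It moved Mrpl28 from -0.42 to -0.65, by more than the median of 0.19 of all tested genes. It changed the split of all calls to 213 higher and 592 lower, in place of 436 higher and 139 lower. Over all alternatives the median of the 78 genes stayed 0.16 to 0.38 below that of all genes. The 2 calls depended on single libraries: without STZ replicate 1, STZ replicate 2 or STZ+AOS replicate 1 there were 0, without STZ+AOS replicate 3 there was 1, without STZ+AOS replicate 2 there were 6 and without STZ replicate 3 there were 15. The calls over all genes moved as well, to 1048 higher and 344 lower without STZ+AOS replicate 2, to 2762 higher and 587 lower without STZ replicate 3, and to 134 higher and 60 lower without STZ+AOS replicate 3, and at most 2 higher and 13 lower were left without any of the other 3. With Cyp11b1 as a covariate, the difference of Mrpl28 was -0.42 (limma adjusted p = 0.534, range over the alternatives 0.0111 to 0.534), and 0 of the 78 and 7 of all genes were called. Cyp11b1 was higher in every STZ+AOS library than in every STZ library, so this covariate overlaps with the group.

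STZ+AOS-FMT against STZ+AOS sets the AOS FMT against AOS itself, both with STZ. Here 8 of the 78 genes were called higher and 0 lower. Of all tested genes 3.99% were called higher and 11.1% lower. The 8 were 6 large-subunit genes, Mrpl28, Mrpl18, Mrpl46, Mrpl4, Mrpl12 and Mrpl42, and 2 small-subunit genes, Mrps26 and Mrps21. Mrpl28 averaged 78.6 ± 1.41 FPKM in STZ+AOS-FMT and 56.2 ± 4.68 FPKM in STZ+AOS (SD, n = 3 each), with a log2 difference of 0.48 ± 0.08, a fitted fold of 1.40 (SE, limma adjusted p = 0.00993). Mrpl18, whose bacterial relative binds ribosomal RNA of the large subunit (chromosome 17, 12911349 to 12916345, minus strand, mm10), was at 77.5, 78.3 and 80.5 FPKM in STZ+AOS-FMT and 66.3, 66.8 and 58.4 FPKM in STZ+AOS (0.30 ± 0.08, limma adjusted p = 0.0266). It shares 10.1% of its exon length with Tcp1 on the opposite strand. Mrps26, a mitochondria-specific protein (chromosome 2, 130563742 to 130568695, plus strand, mm10), was at 67.7, 61.1 and 59.5 FPKM in STZ+AOS-FMT and 53.5, 52.8 and 51.9 FPKM in STZ+AOS (0.24 ± 0.07, limma adjusted p = 0.0352). Neither gene had overlapping groups.

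Mrpl46, also mitochondria-specific, had 42.0, 42.7 and 42.0 FPKM in STZ+AOS-FMT and 29.8, 38.1 and 31.1 FPKM in STZ+AOS (0.35 ± 0.11, limma adjusted p = 0.0433), and shares 12.2% of its exon length with Mrps11 on the opposite strand. Mrpl4, whose bacterial relative reaches into the peptide tunnel, had 123, 120.3 and 110.2 FPKM in STZ+AOS-FMT and 96.7, 108 and 95.5 FPKM in STZ+AOS (0.23 ± 0.07, limma adjusted p = 0.0461). The stalk protein Mrpl12 (chromosome 11, 120484613 to 120489065, plus strand, mm10) had 252, 232 and 212 FPKM in STZ+AOS-FMT and averaged 232 ± 19.8 FPKM there and 179 ± 21.3 FPKM in STZ+AOS (SD, n = 3 each), with a log2 difference of 0.38 ± 0.12 (limma adjusted p = 0.0479). Mrps21 and Mrpl42 passed with log2 differences of 0.35 ± 0.11 (limma adjusted p = 0.0480) and 0.29 ± 0.09 (limma adjusted p = 0.0497). Mrpl42 had 195, 193 and 183 FPKM in STZ+AOS-FMT, above all 3 STZ+AOS libraries. Of the 8 genes, Mrps21 alone had overlapping groups, since its second STZ+AOS library reached 360.2 FPKM. Of all 78 genes, STZ+AOS-FMT lay wholly above STZ+AOS for 24 and wholly below it for 1. No share of all tested genes is given for this.

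The median log2 difference of STZ+AOS-FMT against STZ+AOS was 0.12 for the 78 genes and -0.17 for all tested genes, and 76 of the 78 lay above the median of all genes. Over the alternatives the median of the 78 genes stayed 0.11 to 0.32 above that of all genes. Rescaling by the median of ratios called 33 of the 78, all higher, and changed the split of all calls to 1171 higher and 705 lower, in place of 506 higher and 1413 lower. Mrpl28 remained called whichever library was left out. The other 7 did not: 1 call remained without STZ+AOS replicate 1 or 3 or without any of the STZ+AOS-FMT replicates, and 12 were made without STZ+AOS replicate 2. Calls over all genes were 84 higher and 43 lower without STZ+AOS replicate 1, 355 and 983 without replicate 3 and 628 and 1514 without replicate 2, and 198 and 426, 33 and 9, and 82 and 64 without STZ+AOS-FMT replicates 1, 2 and 3. With the libraries above 100 FPKM of Cyp11b1 left out, a single STZ+AOS library remains, assumed to vary like the other groups. The difference of Mrpl28 was then 0.41 (limma adjusted p = 0.146, range over the alternatives 0.00192 to 0.298), that of Mrps26 0.24 and that of Mrps21 0.08. None of the 78 was called then, and of all genes 2 were called higher and 4 lower.

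**Figure D4:**
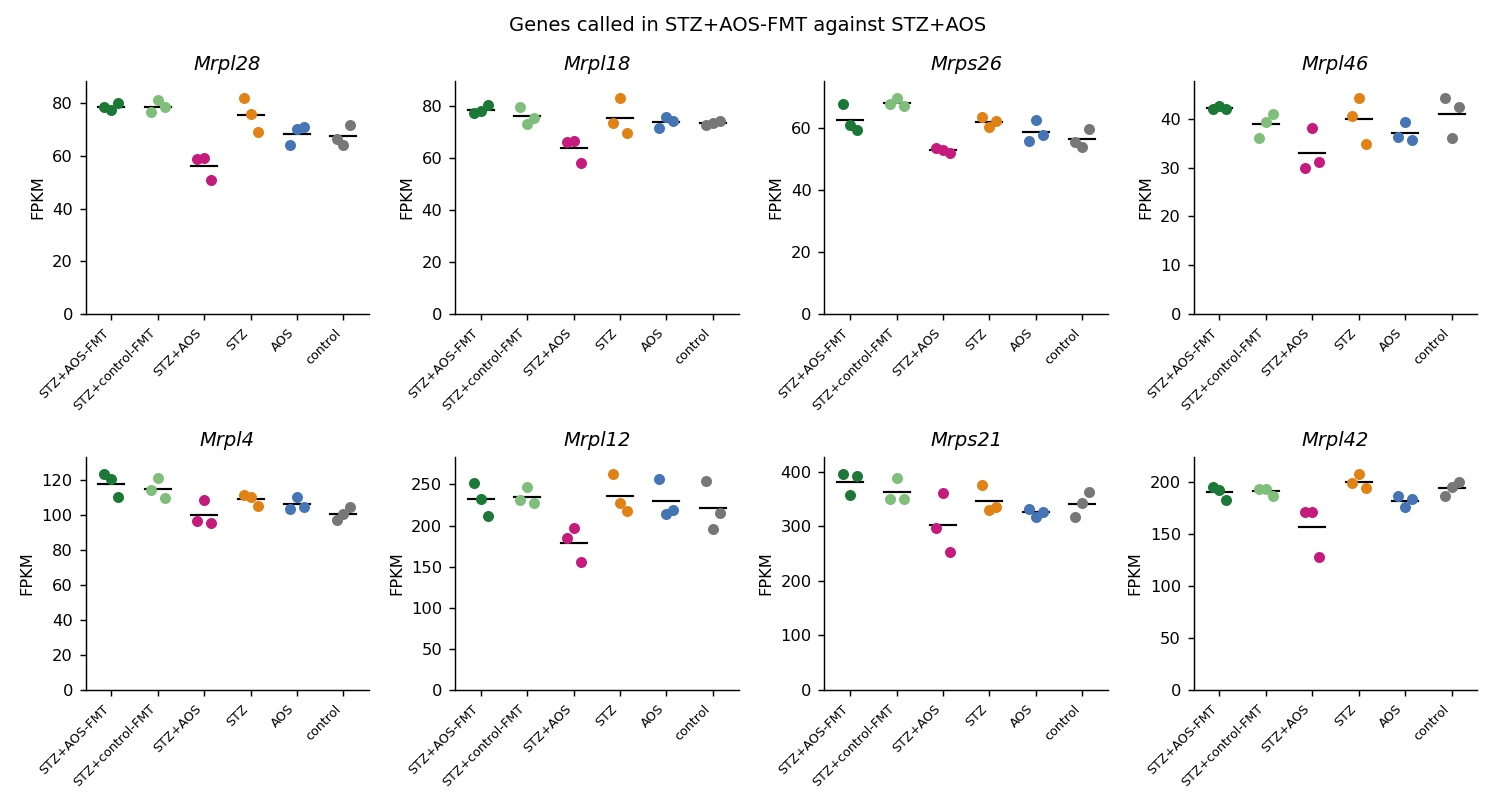
FPKM in each library (points) of the 8 genes called in STZ+AOS-FMT against STZ+AOS, with the mean of the 3 libraries of each group (line). The STZ+AOS libraries are the lowest 3 of all 18 for Mrpl28, Mrpl18, Mrps26 and Mrpl42.

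STZ+AOS against AOS asks what STZ did in mice given AOS. Of the 78 genes 2 were called higher and 8 lower, and of all tested genes 39.3% were called higher and 7.18% lower. Mrps36, the subunit of 2-oxoglutarate dehydrogenase (chromosome 13, 100735955 to 100744659, minus strand, mm10), had the smallest adjusted p, with 79.4, 97.5 and 69.5 FPKM in STZ+AOS and 113, 114 and 112 FPKM in AOS (log2 difference -0.47 ± 0.12 SE, limma adjusted p = 0.0111). Mrpl28 fell by 0.28 ± 0.08 (limma adjusted p = 0.0153). Mrpl44, a large-subunit protein with a fold like that of ribonuclease III, had 27.0, 27.1 and 26.01 FPKM in STZ+AOS and 36.7, 35.1 and 33.6 FPKM in AOS (-0.38 ± 0.11, limma adjusted p = 0.0158). Mrpl50, a mitochondria-specific protein, had 48.0, 49.1 and 38.6 FPKM in STZ+AOS and 59.3, 55.8 and 62.2 FPKM in AOS (-0.38 ± 0.12, limma adjusted p = 0.0193). All 4 had groups that did not overlap. Of all 78 genes, STZ+AOS lay wholly above AOS for 9 and wholly below it for 15. No share of all tested genes is given for this.

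The other genes that fell in STZ+AOS against AOS were Mrpl12 (-0.36 ± 0.12, limma adjusted p = 0.0256), Mrps7, whose bacterial relative organises the head of the small subunit (-0.30 ± 0.10, limma adjusted p = 0.0279), Mrpl18 (-0.21 ± 0.08, limma adjusted p = 0.0364) and Mrpl34 (-0.48 ± 0.18, limma adjusted p = 0.0458). Mrps7 had 53.2, 61.6 and 49.9 FPKM in STZ+AOS and 66.1, 65.8 and 71.0 FPKM in AOS. Mrpl34 had 95.2, 76.5 and 76.0 FPKM in STZ+AOS and 102, 126 and 117 FPKM in AOS. The genes called higher were Mrps35, whose protein is mitochondria-specific, with 48.5, 54.2 and 52.1 FPKM in STZ+AOS and 45.5, 40.0 and 47.8 FPKM in AOS (0.22 ± 0.08, limma adjusted p = 0.0322), and Mrpl33 (0.74 ± 0.28, limma adjusted p = 0.0424). Mrps35 turned to -0.13 when libraries were rescaled by the median of ratios, so its direction depends on the scaling.

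The 78 genes had a median log2 difference of -0.08 in STZ+AOS against AOS and all tested genes 0.29, and 74 of the 78 lay below the median of all genes. Over the alternatives their median stayed 0.16 to 0.42 below that of all genes. Median-of-ratios rescaling called 56 of the 78 and quantile normalization 21, all lower, and the split of all calls became 1723 higher and 2499 lower under the first and 1407 higher and 1951 lower under the second, in place of 4985 higher and 910 lower. Mrps36 and Mrpl44 stayed called whichever library was left out. The count of calls was 5, 4 and 4 without AOS replicates 1, 2 and 3, and 11, 10 and 7 without STZ+AOS replicates 1, 2 and 3. Over all genes 2931 to 5017 were called higher and 564 to 931 lower in these 6 settings. Cyp11b1 was itself far higher in STZ+AOS than in AOS (log2 difference 6.66). As a covariate it therefore overlaps with the group and could leave few calls. With Cyp11b1 as a covariate 0 of the 78 and 0 of all genes were called by limma. Mrpl50 was then at 0.0042, Mrpl33 at -0.14 and Mrpl28 at -0.28 (limma adjusted p = 0.963, range over the alternatives 0.00485 to 0.963).

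**Figure D5:**
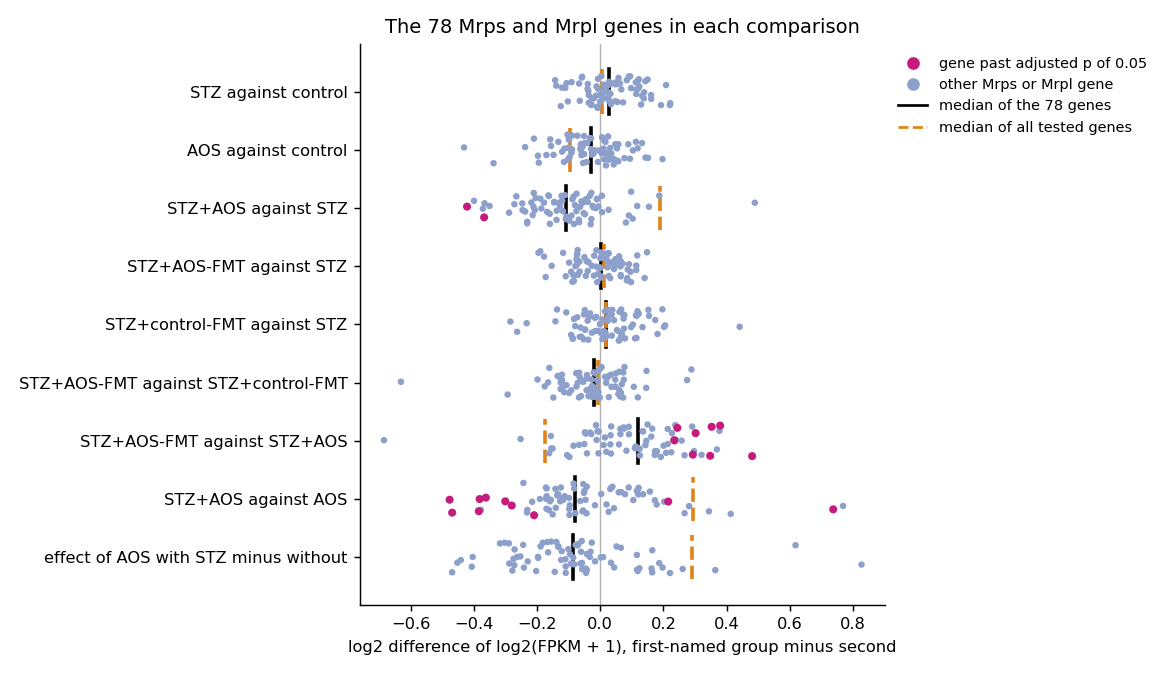
Log2 difference of each of the 78 genes in 9 comparisons, the first-named group minus the second (points, pink where the limma adjusted p is under 0.05), with the median of the 78 genes (black line) and of all tested genes (dashed line). The black and dashed lines part in the comparisons that hold the STZ+AOS group, at -0.11 and 0.19 against STZ.

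The interaction asks whether AOS acted otherwise with STZ than without it. None of the 78 genes was called and 0% of all genes were, while 8 of the 78 and 4240 of all genes had an unadjusted p under 0.05. Mrpl28 had the smallest p, with a difference of differences of -0.44 ± 0.11 (limma adjusted p = 0.0771), followed by Mrps26 (-0.29 ± 0.10, limma adjusted p = 0.0894) and Mrpl12 (-0.45 ± 0.17, limma adjusted p = 0.102). The median was -0.09 for the 78 genes and 0.29 for all genes, and 75 of the 78 lay below the median of all genes. Without STZ replicate 3 there were 3 calls among the 78, with 2582 higher and 462 lower over all genes, and without STZ+AOS replicate 2 there was 1, with 629 higher and 164 lower over all genes. In the F test over all 6 groups, Mrpl28 alone was called among the 78 (limma adjusted p = 0.0460, range over the alternatives 0.00177 to 0.240), and 0.647% of all genes were. That call was lost without any of the AOS or transfer libraries. It was also lost without controls 1 or 2, STZ replicate 2 or STZ+AOS replicates 1 or 3. Without the third control library 6 of the 78 were called, and no count over all genes is given for that setting.

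The transfers were each set against STZ alone, and both comparisons share the STZ libraries. In STZ+AOS-FMT against STZ none of the 78 genes was called, 479 of all genes and 1 of the 78 had an unadjusted p under 0.05, and 0% of all genes were called higher and 0.110% lower. Mrpl20, a protein of the core of the large subunit, had 149, 150.0 and 143 FPKM in STZ+AOS-FMT and 169, 173 and 156 FPKM in STZ, with no overlap (-0.17 ± 0.08, limma adjusted p = 1.00). Mrpl32, which is cut to its mature form by a protease of the inner membrane, had 53.8, 58.1 and 52.9 FPKM in STZ+AOS-FMT and 61.4, 67.5 and 55.3 FPKM in STZ (-0.15 ± 0.09). Mrpl4 was at 0.11 ± 0.07, and the median was 0.00 for the 78 genes and 0.01 for all genes.

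In STZ+control-FMT against STZ, likewise, none was called, and 0% of all genes were called higher and 0.103% lower. Of the 78 genes 5, and of all genes 281, had an unadjusted p under 0.05. Mrpl27, whose bacterial relative reaches the site of peptide bond formation (chromosome 11, 94653767 to 94660089, plus strand, mm10), was at 80.2, 77.4 and 66.9 FPKM in STZ+control-FMT and 54.6, 64.4 and 46.5 FPKM in STZ, with no overlap (0.44 ± 0.14, limma adjusted p = 1.00). Mrpl10, the anchor of the stalk that carries Mrpl12, was at 69.0, 74.2 and 70.6 FPKM in STZ+control-FMT and 97.0, 81.4 and 74.9 FPKM in STZ (-0.23 ± 0.09). Mrpl2, a protein of the core of the large subunit, was at 71.7, 78.8 and 78.4 FPKM in STZ+control-FMT and 67.1, 66.0 and 68.2 FPKM in STZ (0.18 ± 0.08). The median was 0.02 for the 78 genes and for all genes.

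The kinds of transfer were set against each other in STZ+AOS-FMT against STZ+control-FMT. None of the 78 genes and 0% of all genes were called, while 2 of the 78 and 209 of all genes had an unadjusted p under 0.05. Mrpl27 was at 56.7, 46.0 and 41.9 FPKM in STZ+AOS-FMT, below all 3 STZ+control-FMT libraries (-0.63 ± 0.14, limma adjusted p = 1.00). This was the widest difference of the 78 in the comparison. Mrpl10 stood higher, with 86.5, 90.8 and 84.7 FPKM in STZ+AOS-FMT against the STZ+control-FMT values above (0.29 ± 0.09), and Mrpl35 was at 13.03, 13.5 and 13.3 FPKM in STZ+AOS-FMT and 11.2, 9.21 and 12.2 FPKM in STZ+control-FMT (0.27 ± 0.13). The groups did not overlap for these 3 genes, which were picked by p. Of all 78 genes, STZ+AOS-FMT lay wholly above STZ+control-FMT for 5 and wholly below it for 7. No share of all tested genes is given for this. The median was -0.02 for the 78 genes and -0.01 for all genes.

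By subunit, the large one lay lower in STZ+AOS against STZ, with 45 of its 51 genes below 0 and a median of -0.12, than the small one, with 21 of 26 below 0 and a median of -0.07. The mitochondria-specific small-subunit genes had a median of -0.04 there. Set against AOS, STZ+AOS had a median of 0.12 in these genes (6 of 10 above 0), while the mitochondria-specific large-subunit genes had a median of -0.13 (16 of 21 below 0). In STZ+AOS-FMT against STZ+AOS the medians were 0.12 for the large and 0.07 for the small subunit. Against the medians of all tested genes in these 3 comparisons (0.19, 0.29 and -0.17 in the order given), every class named here lay on the side of the 78 genes. No difference between classes was tested.

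Genes that work beside the mitoribosome were counted in the comparisons that share the STZ+AOS libraries. Of 18 mitochondrial translation factors, 17 lay below 0 in STZ+AOS against STZ (median -0.16), with 0 calls by limma and 3 at an unadjusted p under 0.05, and 17 lay above 0 in STZ+AOS-FMT against STZ+AOS (median 0.23). In that comparison 3 were called higher: Rmnd1, which is needed for mitochondrial translation (0.50 ± 0.12, limma adjusted p = 0.0229), the elongation factor Gfm1 (0.42 ± 0.12, limma adjusted p = 0.0317) and the deformylase Pdf (0.33 ± 0.10, limma adjusted p = 0.0400). Gfm1 was at 54.9, 61.9 and 54.1 FPKM in STZ+AOS-FMT and 39.1, 47.7 and 40.1 FPKM in STZ+AOS. Of the 18, 5 were called lower in STZ+AOS against AOS, led by the ribosome recycling factor Gfm2 (-0.58 ± 0.12, limma adjusted p = 0.00640), Pdf, Gfm1 and the elongation factor Tufm. Of all tested genes, 3.99% were called higher in STZ+AOS-FMT against STZ+AOS and 7.18% lower in STZ+AOS against AOS. The median of all tested genes was 0.19 in STZ+AOS against STZ and -0.17 in STZ+AOS-FMT against STZ+AOS.

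The nuclear subunits of oxidative phosphorylation, the machinery that mitochondrial translation feeds, took the same side as the 78 genes. All 27 listed lay below 0 in STZ+AOS against STZ (median -0.20), with 3 called lower, Cox5a, Uqcrfs1 and Ndufb3. All 27 lay above 0 in STZ+AOS-FMT against STZ+AOS (median 0.19), with 8 called higher, led by the succinate dehydrogenase subunit Sdhc (0.35 ± 0.09, limma adjusted p = 0.0271), the complex I subunit Ndufs1 (0.37 ± 0.10, limma adjusted p = 0.0278), Sdhb and Sdha. Sdhc was at 357, 343 and 343 FPKM in STZ+AOS-FMT and 253, 307 and 263 FPKM in STZ+AOS, with no overlap. Called lower in STZ+AOS against AOS were 4 of them, Ndufs1, Sdhc, Ndufb3 and Uqcrfs1 (median of the 27 -0.14). Of all tested genes, 1.10% were called lower in STZ+AOS against STZ, 3.99% higher in STZ+AOS-FMT against STZ+AOS and 7.18% lower in STZ+AOS against AOS. Their medians were 0.19, -0.17 and 0.29 in that order.

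The proteins of the cytosolic ribosome did not share this side. All 25 listed lay above 0 in STZ+AOS against AOS (median 0.47, against 0.29 for all genes) and 19 were called higher, led by Rpl7 (0.49 ± 0.13, limma adjusted p = 0.0124), Rplp0, Rps2 and Rpsa. Rplp0, the anchor of the cytosolic stalk, had 922, 718 and 677 FPKM in STZ+AOS and 518, 523 and 506 FPKM in AOS. In STZ+AOS-FMT against STZ+AOS all 25 lay below 0 (median -0.25, against -0.17 for all genes), and in STZ+AOS against STZ 24 lay above 0 (median 0.19, as for all genes). By limma 0 of the 25 were called in either, with 3 and 0 at an unadjusted p under 0.05. Among 10 regulators of mitochondrial biogenesis, Pprc1, a coactivator related to PGC-1alpha, and Yy1 were called higher in STZ+AOS against STZ, and Myc, Pprc1, Yy1, Nrf1 and Gabpb1 in STZ+AOS against AOS, where 39.3% of all genes were called higher and the median of the 10 was 0.35, near the 0.29 of all genes. Pprc1 and Myc were called lower, and Esrra, a nuclear receptor of mitochondrial genes, higher, in STZ+AOS-FMT against STZ+AOS. Of all tested genes, 11.1% were called lower and 3.99% higher there, and 3.44% were called higher in STZ+AOS against STZ. Myc was at 1.96, 1.10 and 1.61 FPKM in STZ+AOS-FMT and 20.7, 4.83 and 6.16 FPKM in STZ+AOS.

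Markers of kidney cells moved in these comparisons too. Of 10 proximal tubule markers, 7 were called higher in STZ+AOS-FMT against STZ+AOS (median 0.78) and 6 lower in STZ+AOS against AOS (median -0.85). Their sum, most of it Kap, was 59193 to 79178 FPKM in STZ+AOS-FMT, 8527 to 44009 FPKM in STZ+AOS, 18131 to 149843 FPKM in STZ and 149131 to 159746 FPKM in AOS. All 4 podocyte markers were called higher in STZ+AOS against AOS, with sums of 85.3 to 93.8 FPKM in STZ+AOS and 38.7 to 47.1 FPKM in AOS. In the same comparison 2 of 4 collecting duct markers were called higher, and 3 of 5 macrophage markers higher and 1 lower. All 9 adrenal cortex and all 6 chromaffin markers were called higher. No thick ascending limb or distal tubule marker was called there. These counts stand beside 39.3% of all tested genes called higher and 7.18% lower in that comparison. In STZ+AOS-FMT against STZ+AOS 3.99% of all tested genes were called higher. The injury genes Havcr1 and Lcn2, chosen after their values were seen, were at 423, 32.0 and 7.45 FPKM and at 772, 62.8 and 27.2 FPKM in STZ+AOS. In AOS they were at most 2.27 and 3.57 FPKM, and in the transfer groups at most 3.27 and 19.1 FPKM. Havcr1 was at 2.03, 1.85 and 19.4 FPKM in controls and 1.30, 5.87 and 5.16 FPKM in STZ. Lcn2 was at 4.99, 2.72 and 35.1 FPKM in controls and 1.90, 6.19 and 44.25 FPKM in STZ. The third control library thus lay above the third STZ+AOS library for both genes. The part of these cells, of injury and of the adrenal transcripts, in the differences of the 78 genes was not tested.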

How the data were processed

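Kidney RNA of 18 libraries was measured in 6 groups of 3. The authors deposited 1 table of FPKM per gene and library. The unit was inferred from the values, since sums weighted by gene length varied by 0.938% between libraries and plain sums by 5.47%. Bowtie 0.12.2 and mm10 are named, per the submitters' processing notes; which tool counted reads, with which annotation, strand setting and filters, is not stated there or in the labels. FPKM holds no counts, so depth is unknown and no counting interval is given.

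Genes at 1 FPKM or more in at least 3 libraries were tested on log2(FPKM + 1), which understates the change of low genes, with limma 3.58.1 (trend and robust) in R 4.3.3. All 18 libraries entered 1 fit with a mean per group, and p-values were adjusted by Benjamini-Hochberg over all tested genes (threshold 0.05). The fit was tested on simulated data. Coordinates and exon lengths come from GENCODE M21. Values per library are given for the 8 genes with the smallest adjusted p in comparisons with calls (3 in those without), the 6 highest and 4 lowest by level, and the 4 most and 4 least variable; other called genes are named too, and Mrps26 among the promoters was chosen after its values were seen. The genes and lists were chosen with earlier results of these data known. Alternatives changed normalization, filter, pseudocount, model and libraries; those on Cyp11b1 and on leaving out control replicate 3 with STZ replicate 1 were likewise chosen with earlier results known.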

Additional observations from a re-analysis of the deposited data

How the results depend on the processing

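Counts of the 78 genes called are given here where they moved from 2 (STZ+AOS against STZ), 8 (STZ+AOS-FMT against STZ+AOS), 10 (STZ+AOS against AOS), 1 (any difference) and 0 (others). In STZ+AOS against STZ they were 20 with median-of-ratios rescaling, 5 with totals without Kap, 1 with a pseudocount of 0.1, and 0 with library weights, with only the groups compared, without control replicate 3 and STZ replicate 1, with Cyp11b1 as a covariate and without libraries above 100 FPKM of Cyp11b1. In STZ+AOS-FMT against STZ+AOS, in the same terms, they were 33 with median-of-ratios, 3 without a filter, 5 with the pseudocount of 0.1, 4 without trend and robust, 1 with only the groups compared, 17 without the 2 libraries, and 0 under both Cyp11b1 settings. In STZ+AOS against AOS they were 21 with quantile normalization, 56 with median-of-ratios, 16 without Kap, 16 with library weights, 6 with only the groups compared and 0 under both Cyp11b1 settings. Calls over all genes moved too: in STZ+AOS against AOS, 4985 higher and 910 lower became 6423 and 1060 with library weights, 4299 and 1113 without Kap, 0 and 0 with the covariate and 641 and 105 without the libraries above 100 FPKM of Cyp11b1. With only the groups compared, 4514 and 761 were called in STZ+AOS against AOS. In STZ+AOS against STZ, 436 and 139 became 1145 and 201 without Kap and 0 and 9 with library weights. They became 164 and 78 with the pseudocount of 0.1, 0 and 0 with only the groups compared, 7 and 13 without the 2 libraries and 0 and 7 with the covariate. In STZ+AOS-FMT against STZ+AOS, 506 and 1413 became 394 and 1273 without a filter and 466 and 1382 without trend and robust. They became 459 and 1089 with the pseudocount of 0.1, 258 and 880 with only the groups compared, 912 and 3377 without the 2 libraries and 0 and 0 with the covariate. For any difference the counts of the 78 were 2 with quantile normalization, 5 with median-of-ratios, 2 without Kap and 2 without a filter. They were 0 without trend and robust, 21 with library weights, 12 without the 2 libraries and 0 with the covariate. No count over all genes is given for any difference in these settings, so these counts do not set the 78 genes apart from others. STZ against control gave 3 without the 2 libraries. Leaving out 1 library gave 0 to 15 in STZ+AOS against STZ, 1 to 12 in STZ+AOS-FMT against STZ+AOS, 4 to 11 in STZ+AOS against AOS, 0 to 3 for the interaction, 0 to 6 for any difference and 0 elsewhere. In STZ+AOS against AOS, Mrps35 turned to -0.13 with median-of-ratios, and Mrpl50 to 0.0042 and Mrpl33 to -0.14 with Cyp11b1 as a covariate. The causes were not tested, and Cyp11b1 as a covariate overlaps with the STZ+AOS group. Of 809 alternative values of single genes, 628 kept their side of the threshold and direction, 176 lost the call, 2 gained it and 3 turned. These pool genes with and without a call in the main fit, and only a called gene could lose its call. The 628 are thus no measure of how firm the calls are. The replicate numbers did not pair the libraries throughout: deviations correlated over 0.1 in 9 of 24 pairs. No comparison had every pair above 0.1. In STZ against control the correlations were 0.54, -0.16 and 0.67 for numbers 1, 2 and 3. Over all pairs they ran from -0.26 to 0.67, and 9 of the 18 libraries correlated best with one of their own number. With the replicate block the counts were 3, 8 and 11 in the 3 comparisons with calls, and 1 for any difference. Over all genes 903, 550 and 5036 were then called higher in these 3 comparisons, and 213, 1653 and 960 lower. With 3 libraries a group, unknown depth and libraries that stand apart, small differences may have been missed.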

Other observations

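Other gene groups of the mitochondrion were counted in the comparisons that share the STZ+AOS libraries. Of 20 mitochondrial aminoacyl-tRNA synthetases and related enzymes, 17 lay above 0 in STZ+AOS-FMT against STZ+AOS (median 0.12), with Rars2, the arginyl-tRNA synthetase, and Gatb, a subunit of the glutamyl-tRNA amidotransferase, called higher (0.56 and 0.47, limma adjusted p = 0.0295 and 0.0348). Against AOS, STZ+AOS had Gatb (-0.70, limma adjusted p = 0.00590), Rars2 (-0.56, limma adjusted p = 0.0108) and the leucyl-tRNA synthetase Lars2 (-0.36, limma adjusted p = 0.0226) called lower, while 10 of the 20 lay above 0. Of 18 genes of mitochondrial protein import, 14 lay below 0 in STZ+AOS against STZ (median -0.11) and 14 above 0 in STZ+AOS-FMT against STZ+AOS (median 0.09), with 0 calls by limma in either and 3 and 2 at an unadjusted p under 0.05. Set against AOS, STZ+AOS had the processing peptidase subunit Pmpcb (-0.51, limma adjusted p = 0.0148) and the chaperonin Hspd1 (-0.45, limma adjusted p = 0.0493) called lower. Of all tested genes, 3.99% were called higher in STZ+AOS-FMT against STZ+AOS and 7.18% lower in STZ+AOS against AOS.

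Of 21 mitoribosome assembly genes, 13 lay above 0 in each of the 3 comparisons, with medians of 0.02 in STZ+AOS against STZ, 0.06 in STZ+AOS-FMT against STZ+AOS and 0.04 in STZ+AOS against AOS. These lay on the same side of the medians of all tested genes (0.19, -0.17 and 0.29 in that order) as the medians of the 78 genes. In STZ+AOS against AOS Mrm1, which methylates mitochondrial ribosomal RNA (0.35, limma adjusted p = 0.0111), and the helicase Ddx28 (0.52, limma adjusted p = 0.0188) were called higher. Of 9 genes of mitochondrial transcription and genome upkeep, Elac2, which trims transfer RNAs (0.39, limma adjusted p = 0.00877), and the DNA polymerase Polg (0.26, limma adjusted p = 0.0173) were called higher there, and the medians of the 9 were 0.01, 0.08 and 0.03 in the same order. These counts stand beside 39.3% of all genes called higher in that comparison. Of the mitoribosomal genes with other names, 5 were tested, with medians of -0.03 in STZ+AOS against STZ, 0.07 in STZ+AOS-FMT against STZ+AOS and 0.05 in STZ+AOS against AOS. By limma 0 were called in these comparisons, and 0 had an unadjusted p under 0.05.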
